A study of Mus musculus with 20 samples.

Results

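In this series, 10 genes tied to the resting state of lymphocytes were followed in mouse splenic B cells after their antigen receptor was engaged: the forkhead factors Foxo1 and Foxp1, the metabolic brakes Txnip, Pik3ip1 and Sesn3, the glucocorticoid-induced Tsc22d3, the antiproliferative genes Btg1, Btg2 and Tob1, and the Krüppel-like repressor Klf3. They were chosen by gene symbol, with earlier results of these data known. Their counts beside shares of all genes, and those of the other gene lists, are therefore descriptions. Each member had 1 probe set of its own among 21789 with a single symbol. All 10 passed the filter on dim probe sets in 20 of 20 arrays, and they were tested among 11968 genes.

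The 20 arrays measured total RNA. The cells were B cells enriched from spleen by removing CD43+ cells on magnetic beads, from C57BL/6 mice of both sexes aged 8 to 12 weeks. Wild type cells are labelled mb-1/TAK1+/+ and TAK1-deleted cells mb-1/TAK1f/f, so both carry mb-1, the older name of Cd79a, whose locus drives Cre recombinase in the B lineage in the deleter strain of that name. Cells of other lineages in such a spleen would keep TAK1. Each genotype was measured unstimulated (0 h) and after 1, 3, 6 and 24 h with anti-IgM at 10 µg/ml, an antibody that cross-links the receptor, with 2 arrays in each of the 10 groups. Whether the 0 h cells had been in culture, and whether the 2 arrays of a group came from separate mice, is not stated in the labels, so p-values measure only the spread between these arrays, which may be technical.

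FOXO factors are held in the nucleus while PI3K and AKT signalling is low, where they keep genes of the resting state on. AKT phosphorylates them after receptor engagement and they leave the nucleus. TAK1, encoded by Map3k7, is the kinase that passes the B cell receptor signal to NF-κB and JNK, so the comparison of genotypes asks which parts of the response depend on it.

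Promoter sequences were in the RefSeq table of build GRCm38.p6 for all 10 genes, as 14 promoters. The 250 bases before each start were searched on both strands for the FOXO element GTAAACA, the E-box CACGTG, the AP-1 element TGANTCA, the CRE TGACGTCA and the glucocorticoid element ACANNNTGT, which 3.17%, 6.02%, 6.75%, 1.55% and 5.84% of all 32851 promoters hold. Matches were found in Txnip, Btg1 and Btg2, and their promoters are shown because all 3 genes differed between the genotypes at 24 h. Capitals mark the matches.
Txnip promoter, chr3:96557707-96557956, plus strand: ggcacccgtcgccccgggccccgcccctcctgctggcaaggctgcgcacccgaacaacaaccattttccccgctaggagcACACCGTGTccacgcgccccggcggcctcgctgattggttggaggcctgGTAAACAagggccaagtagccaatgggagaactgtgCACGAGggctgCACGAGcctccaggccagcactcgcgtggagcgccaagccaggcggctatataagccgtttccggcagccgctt
Btg1 promoter, chr10:96616751-96617000, plus strand: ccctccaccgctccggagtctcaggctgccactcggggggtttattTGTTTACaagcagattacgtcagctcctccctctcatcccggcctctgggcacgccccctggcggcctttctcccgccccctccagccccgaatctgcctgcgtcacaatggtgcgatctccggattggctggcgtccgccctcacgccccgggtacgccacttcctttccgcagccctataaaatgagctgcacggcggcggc
Btg2 promoter, chr1:134079156-134079405, minus strand: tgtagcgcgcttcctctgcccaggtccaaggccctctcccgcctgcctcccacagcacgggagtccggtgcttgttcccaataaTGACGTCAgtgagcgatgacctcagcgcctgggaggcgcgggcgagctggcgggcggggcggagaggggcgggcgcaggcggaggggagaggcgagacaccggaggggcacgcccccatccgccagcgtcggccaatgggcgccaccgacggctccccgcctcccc

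The Txnip promoter held the FOXO element 121 to 115 bases before the start and the glucocorticoid element 170 to 162 bases before it. It also held CACGAG at 85 to 80 and at 74 to 69 bases before the start. This hexamer is one arm of the carbohydrate response element, and it was added to the search after the sequence was read. CACGAG was in 5.37% of all promoters, and 2 copies on 1 strand with 5 bases between them were in 1 of the 32851, that of Txnip. In Btg1 the FOXO element lay on the opposite strand, 204 to 198 bases before the start, and reads as TGTTTAC above. In Btg2 the CRE lay 166 to 159 bases before the start. A match is a description of the letters, not of a bound factor.

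Across the arrays, replicate arrays correlated at 0.979 to 0.994 over the genes tested, and array medians lay between 7.37 and 7.52 on the log2 scale. Map3k7 itself was at 10.16 to 10.71 over the 10 wild type arrays and at 10.40 to 10.76 in the 10 TAK1-deleted arrays, so its level was not lower in the arrays labelled TAK1-deleted. The deleted stretch is not named in the labels, and a probe set summarised over the gene does not check such a deletion, so the genotype names below are those of the labels. B cell markers were well detected, with Cd79a at 12.00 to 13.70 and Ms4a1 at 11.67 to 13.26. Markers of other cells moved between groups. At 0 h all 9 erythroid genes tested were called higher in TAK1-deleted cells, and 4 of 7 NK cell, 3 of 7 T cell and 3 of 5 plasma cell markers were called lower. Of all genes, 1.5% were called higher and 0.819% lower at 0 h. At 24 h 8 of 10 monocyte or macrophage, 8 of 8 neutrophil, 3 of 4 platelet, 3 of 7 T cell and 3 of 7 dendritic cell markers were called higher in TAK1-deleted cells. Of all genes, 7.04% were called higher and 5.18% lower at 24 h. In such bulk samples, fewer cells of a type and less RNA per cell cannot be told apart.

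**Figure D1:**
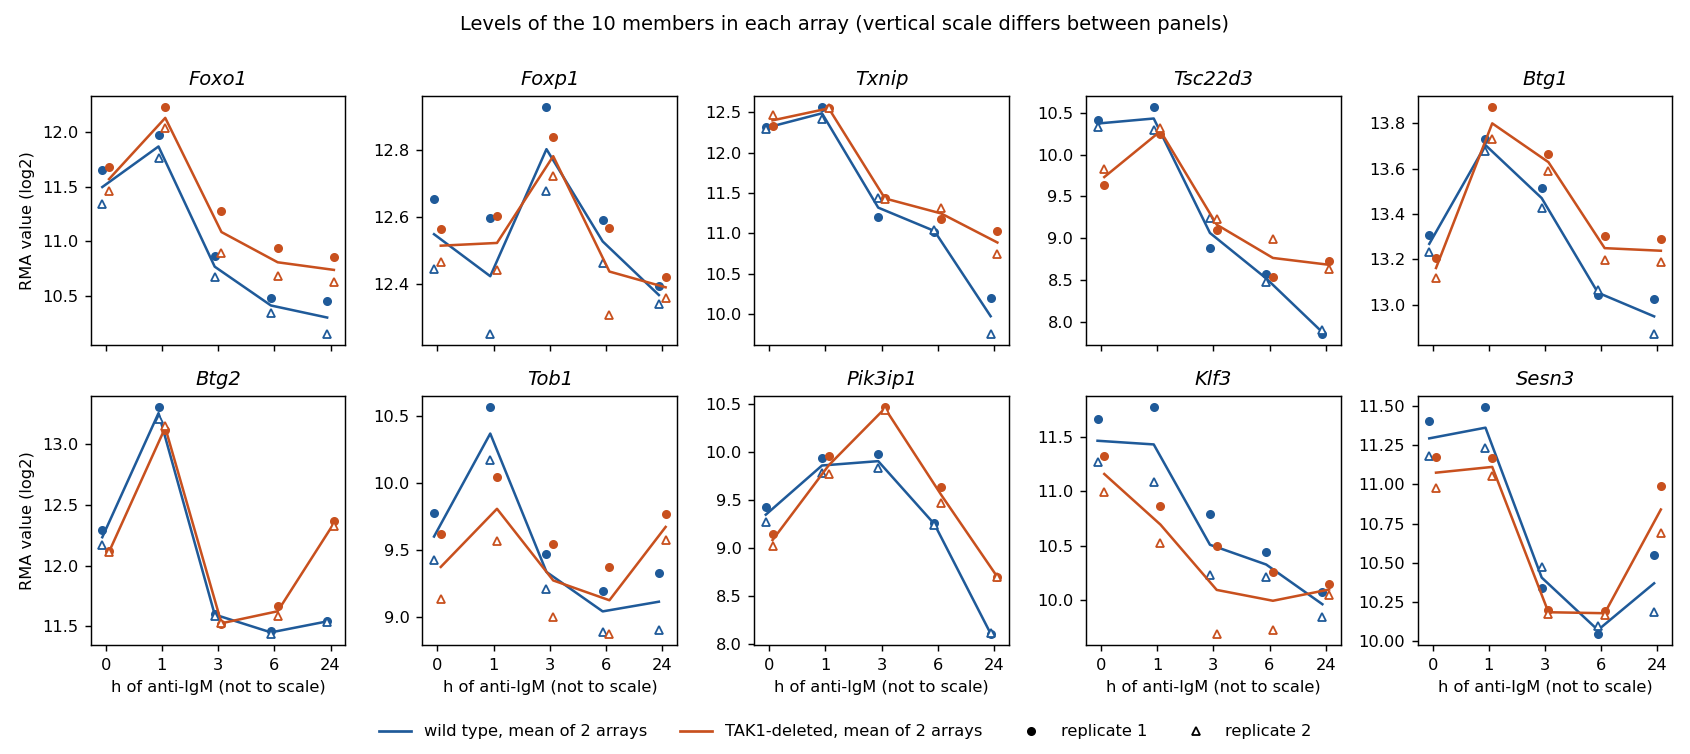
RMA value (log2) of each of the 10 genes in every array against hours of anti-IgM, with wild type in blue and TAK1-deleted in orange; circles are replicate 1, triangles replicate 2, lines the mean of 2 arrays, and the vertical scale differs between panels. Btg1, Btg2, Foxo1 and Tob1 peak at 1 h, Pik3ip1 at 3 h, and in Btg2, Txnip, Tsc22d3 and Pik3ip1 the 24 h arrays of the genotypes stand apart.

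In wild type cells some members were called higher at 1 h, and most were called lower later. At 1 h, 4 of the 10 were called higher than at 0 h, against 10.6% of all genes tested called up and 13.9% called down; Btg2 rose most. By 3 h, 6 were called lower and 2 higher, against 23.2% and 20.9% of all genes. At 6 h, 7 were called lower and at 24 h 8, against 19.1% and 20.2% of all genes called down; 24.1% and 23.6% were called up. The median change of the 10 was 0.28 at 1 h, -0.68 at 3 h, -0.93 at 6 h and -1.06 at 24 h, where the median of all genes was -0.05, 0.04, 0.05 and 0.07. A call is an adjusted p under 0.05 in limma over all genes tested, and values after ± are standard errors of the log2 difference, with n = 2 arrays a group. The 4 times of a genotype were compared with the same 0 h arrays. A second fit took the replicate number as a block, and it called 5 members higher and 0 lower at 1 h (17.2% and 26.1% of all genes), 3 higher and 7 lower at 3 h (28.8% and 30.1%), 0 higher and 8 lower at 6 h (32.2% and 24.9%) and 0 higher and 10 lower at 24 h (31.5% and 26.8%). Values with the block are given below where it changes a call, with its own standard error. Other settings are named, with the adjusted p they gave, where they ended a call: no filter on dim probe sets, each array centred on its median (median centring), no variance trend, and a fit of the contrast on only its own arrays.

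TAK1-deleted cells also had members called higher at 1 h and lower later. At 1 h, 5 members were called higher, against 9.1% of all genes up and 10.2% down. At 3 h, 6 were called lower and 2 higher, against 22.1% and 19.6% of all genes. At 6 h, 6 were called lower and 1 higher, against 17.3% and 18.5%. At 24 h, 5 were called lower and 1 higher, against 12.7% and 14.9%. The medians were 0.49, -0.53, -0.62 and -0.31 at the 4 times, beside -0.03, 0.02, 0.06 and 0.04 over all genes. With the block, 6 members were called higher and 1 lower at 1 h (15.1% and 21.2% of all genes), 3 higher and 6 lower at 3 h (27.4% and 28.9%), 1 higher and 7 lower at 6 h (28.2% and 23.9%) and 2 higher and 5 lower at 24 h (24.1% and 20.6%).

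**Figure D2:**
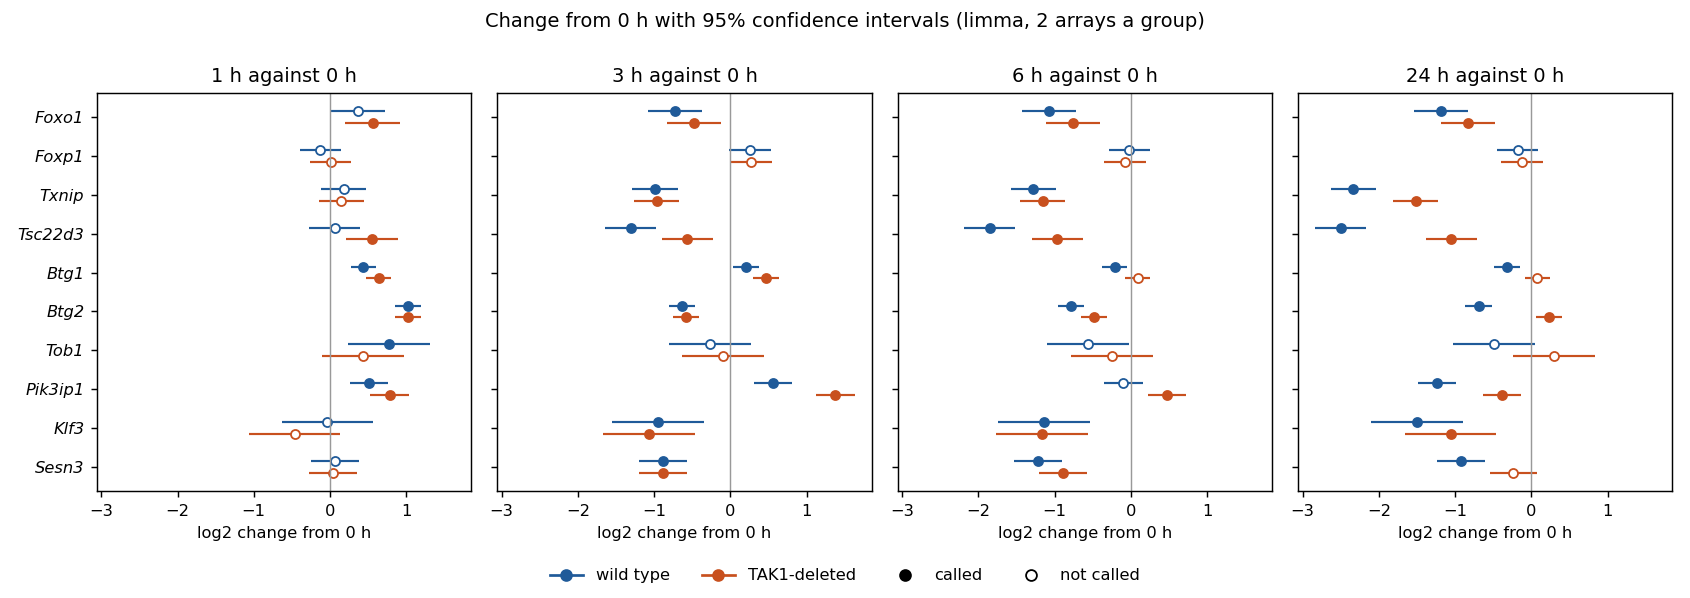
Log2 change from 0 h of each gene at 1, 3, 6 and 24 h, with 95% confidence intervals from limma, wild type in blue and TAK1-deleted in orange; filled points were called. At 24 h the wild type points of Txnip (-2.34) and Tsc22d3 (-2.50) lie farthest to the left, and the TAK1-deleted points of these genes (-1.52 and -1.05) lie nearer 0.

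Foxo1 encodes the FOXO factor best known in B cells. In wild type cells its log2 level was 11.65 and 11.34 at 0 h, 11.97 and 11.76 at 1 h, 10.86 and 10.68 at 3 h, 10.49 and 10.35 at 6 h, with 10.46 and 10.16 at 24 h. The 3, 6 and 24 h arrays all lay below the 0 h arrays, and the 1 h arrays lay above them. Foxo1 fell, with log2 changes of -0.72 ± 0.17 at 3 h (adjusted p = 0.00218), -1.08 ± 0.17 at 6 h (6.87e-05) and -1.19 ± 0.17 at 24 h (2.71e-05), the last a 2.28-fold lower level. The 1 h difference of 0.37 ± 0.17 was not called (adjusted p = 0.126), but it was with the block (0.37 ± 0.08, 0.000769).

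In TAK1-deleted cells Foxo1 was at 11.67 and 11.46 at 0 h, 12.22 and 12.03 at 1 h, 11.28 and 10.89 at 3 h, 10.94 and 10.68 at 6 h, with 10.85 and 10.63 at 24 h. It rose by 0.56 ± 0.17 at 1 h (adjusted p = 0.0272) and fell, with log2 changes of -0.48 ± 0.17 at 3 h (0.0296), -0.76 ± 0.17 at 6 h (0.00201) and -0.83 ± 0.17 at 24 h (0.00147). Its arrays at 1, 3, 6 and 24 h lay above the wild type arrays of the same time without overlap. The differences of 0.26 ± 0.17, 0.32 ± 0.17, 0.39 ± 0.17 and 0.43 ± 0.17 were not called (adjusted p = 0.594, 0.628, 0.331 and 0.113). With the block, whose standard error was 0.08, all 4 were called, at 0.0329, 0.014, 0.00224 and 0.000321. The rise at 1 h was not called without TAK1-deleted 1 h replicate 1, TAK1-deleted 0 h replicate 2 or TAK1-deleted 1 h replicate 2 (adjusted p up to 0.168), nor the fall at 3 h without TAK1-deleted 0 h replicate 1 or TAK1-deleted 3 h replicate 2 (up to 0.281). The rise was also lost with median centring (0.0643) and the fall with median centring (0.063) and only its own arrays (0.0819).

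Foxp1, a forkhead factor needed for early B cell development, varied least. Its wild type level was 12.65 and 12.44 at 0 h, 12.60 and 12.25 at 1 h, 12.93 and 12.68 at 3 h, 12.59 and 12.46 at 6 h, with 12.39 and 12.34 at 24 h, and its TAK1-deleted level was 12.56 and 12.46 at 0 h, 12.60 and 12.44 at 1 h, 12.84 and 12.72 at 3 h, 12.57 and 12.31 at 6 h, with 12.42 and 12.36 at 24 h. The 3 h arrays of each genotype were its highest. Limma called none of its 8 changes from 0 h, and none had an unadjusted p under 0.05, the widest being 0.27 ± 0.13 in TAK1-deleted cells at 3 h (adjusted p = 0.109). Between 1 and 3 h it rose by 0.38 ± 0.13 in wild type cells (0.0291), a call lost without wild type 3 h replicate 1 or wild type 1 h replicate 2 (up to 0.299), or with median centring (0.0704) and only its own arrays (0.101). With the block its 3 h changes were called (0.25 ± 0.07, 0.00543 in wild type and 0.27 ± 0.07, 0.00388 in TAK1-deleted cells), as was its wild type difference at 24 h (-0.18 ± 0.07, 0.0392). The genotypes' arrays overlapped at all 5 times.

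Txnip encodes an arrestin-like protein that binds thioredoxin and lowers glucose uptake. In wild type cells it was at 12.32 and 12.29 at 0 h, 12.56 and 12.42 at 1 h, 11.20 and 11.44 at 3 h, 11.01 and 11.05 at 6 h, with 10.19 and 9.75 at 24 h. Both 1 h arrays lay above the 0 h arrays by a difference that was not called (0.18 ± 0.14, adjusted p = 0.39), and every later array lay below them. Txnip fell, with log2 changes of -0.99 ± 0.14 at 3 h (2.65e-05), -1.28 ± 0.14 at 6 h (1.88e-06) and -2.34 ± 0.14 at 24 h (3.05e-09), when its level was 5.05-fold below that at 0 h.

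TAK1-deleted cells held Txnip at 12.33 and 12.47 at 0 h, 12.55 and 12.55 at 1 h, 11.44 and 11.43 at 3 h, 11.18 and 11.31 at 6 h, with 11.03 and 10.74 at 24 h. Its level there overlapped the wild type arrays at 1 and 3 h and lay above them without overlap at 0 and 6 h, by differences that were not called, and at 24 h. The changes were -0.97 ± 0.14 at 3 h (3.79e-05), -1.16 ± 0.14 at 6 h (8.19e-06) and -1.52 ± 0.14 at 24 h (6.96e-07), a 2.86-fold lower level. At 24 h Txnip was 1.89-fold higher in TAK1-deleted cells (0.91 ± 0.14, adjusted p = 0.00043), while the interval of the difference at 3 h was -0.18 to 0.41.

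Pik3ip1, a membrane protein that inhibits PI3K, rose before it fell. Wild type arrays read 9.42 and 9.27 at 0 h, 9.94 and 9.78 at 1 h, 9.98 and 9.83 at 3 h, 9.26 and 9.24 at 6 h, with 8.10 and 8.11 at 24 h. The 1 and 3 h arrays were the highest and the 24 h arrays the lowest, with no overlap with 0 h. It rose by 0.51 ± 0.12 at 1 h (adjusted p = 0.00461) and 0.56 ± 0.12 at 3 h (0.00117); the 6 h value differed by -0.10 ± 0.12 (0.566); the 24 h change was -1.24 ± 0.12 (5.38e-07). The 1 h call was lost with only its own arrays (0.118).

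TAK1-deleted arrays read 9.14 and 9.02 at 0 h, 9.95 and 9.77 at 1 h, 10.47 and 10.44 at 3 h, 9.63 and 9.47 at 6 h, with 8.70 and 8.69 at 24 h. Pik3ip1 reached its highest level here at 3 h, 2.59-fold above 0 h (1.37 ± 0.12, adjusted p = 2.2e-07), after a rise of 0.78 ± 0.12 at 1 h (0.000176). It was still higher at 6 h by 0.47 ± 0.12 (0.00527) and had fallen below 0 h at 24 h, with a log2 change of -0.38 ± 0.12 (0.0243). The genotypes differed by 0.55 ± 0.12 at 3 h (0.0171) and by 0.59 ± 0.12 at 24 h (0.00373), TAK1-deleted cells being higher. With the block the 6 h difference was called too (0.31 ± 0.09, 0.0332). The 3 h difference was lost with any of its 4 arrays left out (up to 0.204), the 6 h rise without TAK1-deleted 6 h replicate 1 or TAK1-deleted 0 h replicate 2 (up to 0.0653), and the 24 h fall without TAK1-deleted 0 h replicate 1, TAK1-deleted 24 h replicate 1 or TAK1-deleted 24 h replicate 2 (up to 0.147). The 3 h difference was also lost with median centring (0.0716) and only its own arrays (0.279), the 6 h rise with only its own arrays (0.0564), and the 24 h fall with median centring (0.112) and only its own arrays (0.133).

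Sesn3 encodes a sestrin, a stress protein that restrains mTORC1. Wild type arrays were at 11.40 and 11.18 at 0 h, 11.49 and 11.23 at 1 h, 10.34 and 10.47 at 3 h, 10.05 and 10.10 at 6 h, with 10.55 and 10.19 at 24 h. The 0 and 1 h arrays overlapped, and all later arrays lay lower. Sesn3 fell, with log2 changes of -0.89 ± 0.15 at 3 h (adjusted p = 0.000133), -1.22 ± 0.15 at 6 h (5.55e-06) and -0.92 ± 0.15 at 24 h (9.19e-05).

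In TAK1-deleted cells Sesn3 was at 11.17 and 10.98 at 0 h, 11.17 and 11.06 at 1 h, 10.20 and 10.17 at 3 h, 10.19 and 10.17 at 6 h, with 10.99 and 10.69 at 24 h. It fell, with log2 changes of -0.89 ± 0.15 at 3 h (0.000145) and -0.89 ± 0.15 at 6 h (0.000169), then rose by 0.66 ± 0.15 between 6 and 24 h (0.00472), so that the 24 h arrays overlapped those at 0 h. At 24 h it was 1.38-fold higher than in wild type cells (0.47 ± 0.15, 0.0489), a call lost without TAK1-deleted 24 h replicate 1, wild type 24 h replicate 2 or TAK1-deleted 24 h replicate 2 (up to 0.363), and with no filter (0.0722), median centring (0.109), no variance trend (0.0503) and only its own arrays (0.075). The rise after 6 h was lost without TAK1-deleted 24 h replicate 1 (0.0792).

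Tsc22d3, also known as GILZ, is a leucine zipper gene induced by glucocorticoids and by FOXO factors in lymphocytes. In wild type cells it was at 10.41 and 10.33 at 0 h, 10.57 and 10.30 at 1 h, 8.89 and 9.24 at 3 h, 8.57 and 8.47 at 6 h, with 7.85 and 7.90 at 24 h. The 0 and 1 h arrays overlapped, and the level then dropped at each later time. The changes were -1.31 ± 0.16 at 3 h (adjusted p = 5.58e-06), -1.85 ± 0.16 at 6 h (1.42e-07) and -2.50 ± 0.16 at 24 h (5.39e-09), 5.65-fold, the widest change of the 10 genes.

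TAK1-deleted arrays held Tsc22d3 at 9.64 and 9.83 at 0 h, 10.24 and 10.32 at 1 h, 9.10 and 9.23 at 3 h, 8.54 and 8.99 at 6 h, with 8.73 and 8.63 at 24 h. At 0 h both lay below both wild type arrays, and at 24 h both lay above them. The 0 h difference was -0.64 ± 0.16 (0.0434) and the 24 h difference 0.81 ± 0.16 (0.00299). Against 0 h, Tsc22d3 rose by 0.55 ± 0.16 at 1 h (0.0212) and fell, with log2 changes of -0.57 ± 0.16 at 3 h (0.00823), -0.97 ± 0.16 at 6 h (0.000151) and -1.05 ± 0.16 at 24 h (0.000107). The 0 h call was lost with any of its 4 arrays left out (up to 0.328), the 1 h rise without TAK1-deleted 0 h replicate 1, TAK1-deleted 1 h replicate 1 or TAK1-deleted 1 h replicate 2 (up to 0.164), and the 3 h fall without TAK1-deleted 3 h replicate 1 or TAK1-deleted 0 h replicate 2 (up to 0.0718). The 0 h call was also lost with no filter (0.0611), median centring (0.0631) and only its own arrays (0.235), and the 1 h rise with only its own arrays (0.0786).

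Btg1, Btg2 and Tob1 encode related antiproliferative proteins that bring the CCR4-NOT deadenylase to mRNAs. Btg2 in wild type cells was at 12.29 and 12.17 at 0 h, 13.31 and 13.21 at 1 h, 11.61 and 11.59 at 3 h, 11.46 and 11.44 at 6 h, with 11.54 and 11.54 at 24 h. Its arrays were highest at 1 h and lay below the 0 h arrays at each later time. Btg2 rose at 1 h (1.02 ± 0.08, 2.03-fold, adjusted p = 1.36e-07) and fell, with log2 changes of -0.64 ± 0.08 at 3 h (9.14e-06), -0.78 ± 0.08 at 6 h (1.02e-06) and -0.69 ± 0.08 at 24 h (3.86e-06).

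In TAK1-deleted cells Btg2 was at 12.12 and 12.11 at 0 h, 13.12 and 13.15 at 1 h, 11.52 and 11.53 at 3 h, 11.67 and 11.58 at 6 h, with 12.37 and 12.33 at 24 h. These cells had a 1 h rise of 1.02 ± 0.08 (1.85e-07) and a 3 h change of -0.59 ± 0.08 (2.36e-05). After a change of -0.49 ± 0.08 at 6 h (0.00017) it rose by 0.72 ± 0.08 between 6 and 24 h (1.06e-05), while the wild type step was 0.09 ± 0.08 (0.502). At 24 h it was 1.75-fold higher than in wild type cells (0.81 ± 0.08, 8.6e-06). It stood 0.24 ± 0.08 above its own 0 h level (0.0399), a call lost with any of the 4 arrays left out (up to 0.186), and with no filter (0.0727), no variance trend (0.0869) and only its own arrays (0.14).

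Btg1 changed by smaller amounts. Wild type arrays read 13.31 and 13.23 at 0 h, 13.73 and 13.68 at 1 h, 13.52 and 13.43 at 3 h, 13.04 and 13.06 at 6 h, with 13.03 and 12.87 at 24 h, and TAK1-deleted arrays read 13.21 and 13.12 at 0 h, 13.87 and 13.73 at 1 h, 13.67 and 13.59 at 3 h, 13.30 and 13.20 at 6 h, with 13.29 and 13.19 at 24 h. In each genotype the 1 h arrays were the highest. Btg1 rose at 1 h by 0.44 ± 0.08 in wild type (adjusted p = 0.000624) and 0.64 ± 0.08 in TAK1-deleted cells (2.11e-05), and at 3 h by 0.20 ± 0.08 (0.0472) and 0.47 ± 0.08 (0.00016). Wild type cells then fell below 0 h, with log2 changes of -0.22 ± 0.08 at 6 h (0.0355) and -0.32 ± 0.08 at 24 h (0.0033), while TAK1-deleted cells differed from 0 h by 0.09 ± 0.08 (0.428) and 0.08 ± 0.08 (0.532). At 24 h the genotypes differed by 0.29 ± 0.08 (0.0233), and with the block also at 6 h (0.20 ± 0.05, 0.0229). The wild type calls at 3 and 6 h were lost with any of their 4 arrays left out (up to 0.232 and 0.18). The wild type 24 h call was lost without wild type 24 h replicate 2 (0.0502), and the genotype difference without TAK1-deleted 24 h replicate 1, wild type 24 h replicate 2 or TAK1-deleted 24 h replicate 2 (up to 0.187). The genotype difference was also lost with no filter (0.0525), median centring (0.0972) and no variance trend (0.0967). The wild type call at 3 h was lost with no filter (0.097), median centring (0.105), no variance trend (0.143) and only its own arrays (0.136), that at 6 h with no filter (0.0765), median centring (0.269) and no variance trend (0.12), and that at 24 h with median centring (0.0607).

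Tob1 was at 9.78 and 9.42 at 0 h, 10.57 and 10.17 at 1 h, 9.47 and 9.20 at 3 h, 9.19 and 8.88 at 6 h, with 9.32 and 8.90 at 24 h in wild type cells. The 1 h arrays stood above the 0 h arrays without overlap. It rose by 0.77 ± 0.25 at 1 h (adjusted p = 0.0351), a call lost without wild type 0 h replicate 1, wild type 1 h replicate 1 or wild type 0 h replicate 2 (up to 0.185) or with median centring (0.0556), and fell by 1.04 ± 0.25 from 1 to 3 h (0.00422), a call lost without wild type 1 h replicate 1 (0.0512).

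In TAK1-deleted cells Tob1 was at 9.61 and 9.13 at 0 h, 10.04 and 9.57 at 1 h, 9.54 and 9.0 at 3 h, 9.37 and 8.87 at 6 h, with 9.77 and 9.57 at 24 h. Replicate 1 read above replicate 2 in all 10 groups, by 0.40 on average, and the block took up this gap. Without it none of the genotype differences was called, at -0.56 ± 0.25 at 1 h (adjusted p = 0.325) and 0.56 ± 0.25 at 24 h (0.184). With it both were called, at -0.56 ± 0.10 (0.000542) and 0.56 ± 0.10 (0.000256), so Tob1 was lower in TAK1-deleted cells at 1 h and higher at 24 h in that fit. It also called Tob1 against 0 h in wild type cells at 3 h (-0.26 ± 0.10, 0.027), 6 h (-0.56 ± 0.10, 6.22e-05) and 24 h (-0.49 ± 0.10, 0.000271). In TAK1-deleted cells it called the changes at 1 h (0.44 ± 0.10, 0.00164), 6 h (-0.25 ± 0.10, 0.041) and 24 h (0.30 ± 0.10, 0.0185).

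Klf3 encodes a zinc finger repressor. Wild type arrays were at 11.66 and 11.27 at 0 h, 11.77 and 11.09 at 1 h, 10.79 and 10.23 at 3 h, 10.44 and 10.21 at 6 h, with 10.08 and 9.85 at 24 h, and TAK1-deleted arrays at 11.33 and 10.99 at 0 h, 10.87 and 10.52 at 1 h, 10.50 and 9.69 at 3 h, 10.26 and 9.73 at 6 h, with 10.15 and 10.05 at 24 h. Replicate 1 was again above replicate 2 in all 10 groups, with a mean gap of 0.42, and the 3, 6 and 24 h arrays lay below both 0 h arrays of their genotype. Klf3 fell in wild type cells, with log2 changes of -0.95 ± 0.28 at 3 h (adjusted p = 0.0119), -1.14 ± 0.28 at 6 h (0.00386) and -1.5 ± 0.28 at 24 h (0.000422). In TAK1-deleted cells it fell, with log2 changes of -1.06 ± 0.28 (0.00637), -1.16 ± 0.28 (0.00408) and -1.06 ± 0.28 (0.0103) at these times. The difference at 1 h, -0.74 ± 0.28 (0.215), was called with the block (-0.74 ± 0.13, 0.000615), as was the TAK1-deleted change from 0 to 1 h (-0.46 ± 0.13, 0.00842). The 3 h falls were lost without wild type 0 h replicate 1 or wild type 3 h replicate 2 in wild type (up to 0.139) and without TAK1-deleted 0 h replicate 1 or TAK1-deleted 3 h replicate 2 in TAK1-deleted cells (up to 0.111). The later TAK1-deleted falls were lost without TAK1-deleted 6 h replicate 2 at 6 h (0.064) and without TAK1-deleted 0 h replicate 1 or TAK1-deleted 24 h replicate 2 at 24 h (up to 0.0871).

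The step from 1 to 3 h held the most calls. Over it 8 members fell and 1 rose in wild type cells, against 18% and 18.1% of all genes, and 5 fell and 1 rose in TAK1-deleted cells, against 17.2% and 15.4%. Btg2 fell, with log2 changes of -1.66 ± 0.08 in wild type and -1.61 ± 0.08 in TAK1-deleted cells (adjusted p = 2.47e-09 and 4.35e-09), the widest step of any member. From 3 to 6 h, 3 fell in wild type cells (Tsc22d3, Btg1 and Pik3ip1), against 2.87% of all genes down and 5.83% up, and 2 in TAK1-deleted cells (Btg1 and Pik3ip1), against 2.42% and 3.66%. Fewer members were called over the wild type 1 to 3 h step with any of its arrays left out. The same held for the later steps of both genotypes with some arrays left out. The Btg1 call of the wild type 1 to 3 h step was lost with no filter (0.0648), median centring (0.103), no variance trend (0.103) and only its own arrays (0.202). The Tsc22d3 call from 3 to 6 h was lost with no filter (0.0697), median centring (0.0835) and only its own arrays (0.0536), and those of the TAK1-deleted cells over these hours with median centring (0.0658) and only its own arrays (0.151) for Btg1 and only its own arrays (0.0821) for Pik3ip1.

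From 6 to 24 h, Txnip, Tsc22d3 and Pik3ip1 fell in wild type cells, against 10.4% of all genes down and 9.02% up. In TAK1-deleted cells Btg2 and Sesn3 rose and Pik3ip1 fell, against 10.8% up and 8.05% down. Txnip dropped by 1.06 ± 0.14 over this step in wild type cells (4.47e-05). Pik3ip1 dropped by 1.14 ± 0.12 (4.32e-06).

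The replicate block called more members over these steps, and more of all genes. From 3 to 6 h in wild type cells it called 7 lower (8.14% of all genes down and 17.8% up), adding Foxo1 (-0.35 ± 0.08, 0.00239), Foxp1 (-0.28 ± 0.07, 0.00858), Tob1 (-0.30 ± 0.10, 0.0332) and Sesn3 (-0.33 ± 0.11, 0.0272). From 1 to 3 h in TAK1-deleted cells it called 8 lower and 2 higher (24.5% and 23.5%), adding Foxp1 (0.26 ± 0.07, 0.00593), Btg1 (-0.17 ± 0.05, 0.0135), Tob1 (-0.54 ± 0.10, 0.000149) and Klf3 (-0.60 ± 0.13, 0.000772). From 3 to 6 h there it called 5 lower (8.63% down and 12.1% up), adding Foxo1 (-0.28 ± 0.08, 0.0164), Foxp1 (-0.34 ± 0.07, 0.00202) and Tsc22d3 (-0.40 ± 0.13, 0.0416). Over the last step it added Klf3 (-0.36 ± 0.13, 0.034) and Sesn3 (0.30 ± 0.11, 0.035) in wild type cells (22.4% of all genes down and 15.7% up), and Txnip (-0.36 ± 0.12, 0.0237) and Tob1 (0.55 ± 0.10, 0.000198) in TAK1-deleted cells (17.9% and 17.7%).

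**Figure D3:**
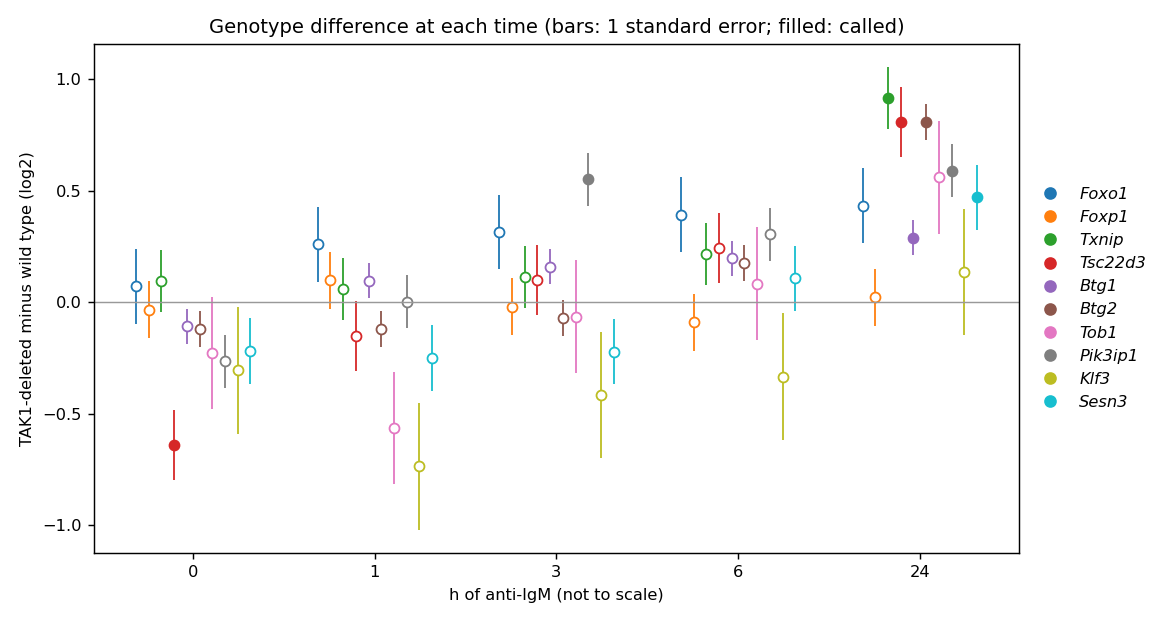
Difference between the genotypes (TAK1-deleted minus wild type, log2) for each gene at 0, 1, 3, 6 and 24 h, with bars of 1 standard error; filled points were called. At 24 h all 10 points lie above 0, from 0.02 for Foxp1 to 0.91 for Txnip, and 6 of them are filled.

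Without the replicate block, most of the members' calls between genotypes were made at 24 h. At that time 6 of the 10 members were called higher in TAK1-deleted cells, against 7.04% of all genes called up and 5.18% called down: Txnip, Tsc22d3, Btg2, Pik3ip1, Sesn3 and Btg1. The differences ran from 0.02 to 0.91 with a median of 0.51, where the median of all genes was 0.00032. All 10 members were higher in TAK1-deleted cells within replicate 1 and within replicate 2, as were 38.1% of all genes. In 8 both TAK1-deleted arrays lay above both wild type arrays, as in 27.1% of all genes. With the replicate block 8 were called, Foxo1 and Tob1 in addition, against 14.7% of all genes up and 14.1% down. Without the calls of Btg1 and Sesn3, which were lost with no filter, with median centring and with no variance trend, 4 were called.

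Earlier differences were few without the block. At 0 h Tsc22d3 was called lower, against 0.819% of all genes down and 1.5% up. Pik3ip1 was lower there as well, with an unadjusted limma p under 0.05, and was not called. At 3 h Pik3ip1 was called higher, against 1% up and 1.7% down. At 1 h limma called no member (2.07% of all genes up and 2.21% down), and 2 had an unadjusted p under 0.05, Tob1 and Klf3, both lower. At 6 h it called no member (0.927% up and 1.6% down), and 4 had an unadjusted p under 0.05, Foxo1, Btg1, Btg2 and Pik3ip1, all higher. These percentages are of genes called by adjusted p. The share of all genes with an unadjusted p under 0.05 was not counted, so the unadjusted counts have no background. With the block, 1 member was called at 0 h (Tsc22d3 lower) and 3 at 1 h (Foxo1 higher, Tob1 and Klf3 lower). It called 2 at 3 h (Foxo1 and Pik3ip1 higher) and 3 at 6 h (Foxo1, Btg1 and Pik3ip1 higher). Of all genes, the block called 4.1% higher and 2.89% lower at 0 h, and 7.19% higher and 5.72% lower at 1 h. At 3 h it called 3.82% higher and 4.5% lower, and at 6 h 4.34% higher and 7.85% lower.

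The change from 0 to 24 h itself differed between the genotypes for 5 members, against 4.62% of all genes called up and 4.04% called down in this interaction. In each the TAK1-deleted change was less negative or more positive: by 1.45 ± 0.22 for Tsc22d3 (adjusted p = 0.000632), 0.93 ± 0.11 for Btg2 (0.000126), 0.86 ± 0.17 for Pik3ip1 (0.00403), 0.82 ± 0.20 for Txnip (0.0143) and 0.40 ± 0.11 for Btg1 (0.0345). Part of the Tsc22d3 value lay in its lower 0 h level in TAK1-deleted cells. The 0 h levels of others were lower too within replicates 1 and 2, though not called. They differed by -0.28 and -0.25 for Pik3ip1, -0.10 and -0.11 for Btg1 and -0.18 and -0.06 for Btg2. For Sesn3 the values were -0.23 and -0.21, and for Tob1 -0.16 and -0.29. Txnip (0.01 and 0.18) and Foxo1 (0.02 and 0.12) were higher at 0 h. Sesn3 differed by 0.69 ± 0.21 (0.0525) and was called with the block (0.69 ± 0.15, 0.00244), as were Tob1 (0.79 ± 0.14, 0.000347) and Foxo1 (0.36 ± 0.11, 0.0235), which made 8, against 11.1% of all genes up and 10.9% down. The Txnip call was lost without TAK1-deleted 0 h replicate 1, TAK1-deleted 24 h replicate 1 or wild type 24 h replicate 2 (up to 0.0808). The Btg1 call was lost without wild type 0 h replicate 1, TAK1-deleted 24 h replicate 1, wild type 0 h replicate 2, wild type 24 h replicate 2, TAK1-deleted 0 h replicate 2 or TAK1-deleted 24 h replicate 2 (up to 0.141), and with no filter (0.0775), median centring (0.153), no variance trend (0.137) and only its own arrays (0.0649). Those of Tsc22d3, Btg2 and Pik3ip1 were kept with each of the 8 arrays left out.

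Over the last step alone, from 6 to 24 h, the response of Btg2 differed by 0.63 ± 0.11 (0.0039), the single member called, against 3.24% of all genes up and 0.627% down. With the block Txnip (0.70 ± 0.17, 0.00925) and Tob1 (0.48 ± 0.14, 0.0322) were called too, against 7.69% up and 2.9% down. Limma called no member for the change from 0 to 1 h, 3 h or 6 h, and 1, 3 and 4 members had an unadjusted p under 0.05. The share of all genes with such an unadjusted p was not counted. By adjusted p, the shares of all genes called up were 0%, 0% and 0.0919% for these changes, and those called down 0.109%, 0.0585% and 0.192%. With the block, Pik3ip1 was called at 3 h (0.82 ± 0.13, 0.00142), against 0.56% of all genes up and 1.39% down. At 6 h it called Tsc22d3 (0.89 ± 0.19, 0.00801), Btg1 (0.30 ± 0.08, 0.0231) and Pik3ip1 (0.57 ± 0.13, 0.0107), against 1.81% and 4.64%.

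Markers of other cells and of division moved beside these late differences. The summed linear values of the 10 monocyte or macrophage markers were 4311 to 4697 in the wild type 24 h arrays and 12624 to 14206 in the TAK1-deleted ones, after 23074 to 25519 and 22747 to 23299 at 0 h. Those of the 8 neutrophil markers were 1630 to 1655 and 8023 to 8169 at 24 h, and those of the 7 T cell markers tested 1809 to 1834 and 2809 to 2924. The 9 B cell markers tested overlapped at 24 h, at 38208 to 39903 and 39105 to 41394. Of 15 cell cycle genes tested, 14 rose by 24 h in wild type cells, beside 23.6% of all genes. At 24 h 12 were lower in TAK1-deleted than in wild type cells, beside 5.18% of all genes. For all 15 the change from 0 h was called lower in TAK1-deleted cells, beside 4.04%. Their summed values were already apart at 0 h, at 14438 to 14582 in wild type and 21020 to 22626 in TAK1-deleted arrays. At 24 h they were 39387 to 45345 and 26733 to 29384, so part of the lower change lay in the higher 0 h level. The part of other cells in the members' values was not tested.

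The wild type fall over 24 h also ran beside other cells' markers. Called lower were 7 of 7 T cell, 7 of 7 NK cell and 10 of 10 monocyte or macrophage markers, and 8 of 9 B cell markers. So were 7 of 8 neutrophil, 6 of 7 dendritic cell, 4 of 9 erythroid, 3 of 5 plasma cell and 2 of 4 platelet markers. Of all genes 20.2% were called lower. The T cell sum went from 7224 to 9180 to 1809 to 1834, the NK cell sum from 5893 to 6958 to 1087 to 1135, and the B cell sum from 73706 to 80816 to 38208 to 39903. For Tsc22d3 at 0 h, the T cell sums were 7224 to 9180 in wild type and 4196 to 5511 in TAK1-deleted arrays, and the erythroid sums 5946 to 6059 and 17176 to 20630. Their part was not tested.

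**Figure D4:**
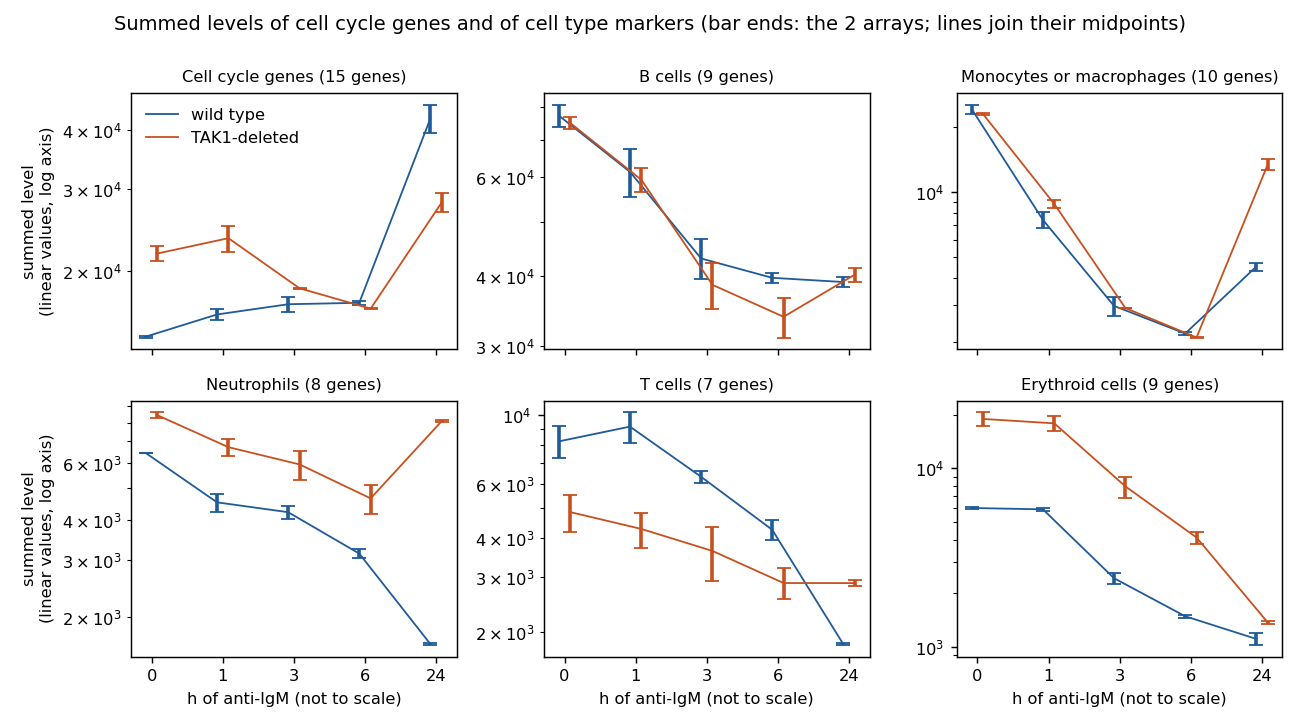
Summed level (linear values, log axis) of 15 cell cycle genes and of 5 cell type marker lists against hours of anti-IgM, with bar ends at the 2 arrays of a group, lines through their midpoints, wild type in blue and TAK1-deleted in orange. At 24 h the TAK1-deleted arrays are lower for cell cycle genes (26733 to 29384 against 39387 to 45345) and higher for monocyte or macrophage and neutrophil markers, while B cell markers overlap.

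Other genes known as FOXO targets were also counted. The list does not separate targets raised by FOXO factors from targets lowered by them. Its counts of higher and lower genes therefore give no direction of FOXO activity. At 24 h in wild type cells, 13 of the 24 tested were lower and 4 higher, beside 20.2% and 23.6% of all genes. In TAK1-deleted cells 7 were lower and 10 higher, beside 12.7% and 14.9%. The widest wild type changes were those of S1pr1, the receptor for leaving lymphoid tissue (-2.98 ± 0.16, adjusted p = 1.32e-09), Bcl6, the germinal centre repressor (-2.78 ± 0.19), Ccnd1, encoding cyclin D1 (-2.67 ± 0.16), and Klf2, a quiescence factor (-2.23 ± 0.17). Between genotypes at 24 h, 6 were higher in TAK1-deleted cells and 1 lower (7.04% and 5.18% of all genes), led by S1pr1 (1.42 ± 0.16, 3.42e-05), Klf2 (1.09 ± 0.17, 0.00059), Bcl6 (1.01 ± 0.19, 0.00267) and Ccng2 (0.86 ± 0.16, 0.00184), which encodes an atypical cyclin linked to cell cycle exit. For 7 of the 24 the change from 0 to 24 h was called higher in TAK1-deleted cells (4.62% of all genes), including Il7r (2.09 ± 0.45, 0.00686). The same change was called higher for 6 of 7 T cell and 7 of 10 monocyte or macrophage markers, and lower for 7 of 9 erythroid markers. Of all genes, 4.62% were called higher and 4.04% lower in it. The part of other cells in these values was not tested. The list's median genotype difference at 24 h was 0.31, against 0.51 for the 10 members and 0.00032 for all genes. Rag1 and Rag2, of the same list, were below the filter and were not tested.

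At 1 h in wild type cells 7 of the 24 were higher and 1 lower, beside 10.6% and 13.9% of all genes, and the other 16 were not called. Irs2, the insulin receptor substrate that feeds PI3K, rose by 3.33 ± 0.12 (3.39e-11), and Bcl2l11, the death gene encoding BIM, by 2.09 ± 0.17 (2.37e-07), while Ccnd1 fell by 1.52 ± 0.16 (3.03e-06). Among relatives of the members, Tob2 rose by 1.71 ± 0.18 (3.44e-06) at 1 h, and 7 of 13 KLF factors rose, with Klf10 at 2.65 ± 0.15, Klf4 at 2.05 ± 0.19 and Klf9 at 1.89 ± 0.14. Of 8 TSC22 relatives and glucocorticoid-induced genes 4 rose: Per1 by 2.70 ± 0.21, Dusp1 by 2.22 ± 0.30, Tsc22d1 by 1.70 ± 0.18 and Tsc22d2 by 1.25 ± 0.11, where Tsc22d3 differed by 0.06 ± 0.16. By 24 h 5 of these 8 were lower than at 0 h in wild type cells.

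The other forkhead factors were called in both directions. Of 12 tested, 4 were higher and 3 lower at 24 h in wild type cells, beside 23.6% and 20.2% of all genes, with Foxm1, a factor of dividing cells, up by 1.15 ± 0.17 (5.59e-05) and Foxp3, the regulatory T cell factor, lower (-1.05 ± 0.18, 0.000165). Foxm1 was also the single one called between genotypes at 24 h, lower in TAK1-deleted cells (-0.96 ± 0.17, 0.00183). In the PI3K, AKT and mTOR list, 9 of 22 were lower and 4 higher at 24 h in wild type cells, beside the same shares of all genes. Pik3cb and Pik3cg, which encode catalytic subunits of PI3K, fell, with log2 changes of -1.95 ± 0.17 and -1.85 ± 0.17, and Phlpp1, an AKT phosphatase, rose by 1.69 ± 0.18. Between genotypes at 24 h 4 of the 22 were higher in TAK1-deleted cells (7.04% of all genes), Pik3r5 (0.98 ± 0.21), Sgk1 (0.88 ± 0.27), Pik3cb (0.79 ± 0.17) and Pik3cd (0.62 ± 0.14).

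Over the 10 group means, the courses of some members were alike and those of others were not. Pearson's r was 0.967 between Txnip and Tsc22d3, 0.946 between Foxo1 and Tsc22d3, 0.940 between Foxo1 and Txnip, and 0.934 between Btg2 and Tob1. Other pairs were far less alike, with 0.306 between Btg1 and Klf3, 0.030 between Foxo1 and Foxp1 and -0.001 between Pik3ip1 and Sesn3. The lowest was -0.34, between Foxp1 and Btg2. Correlations between genes outside the members were not counted as a background. The genes with the course most like each member over these means were Tmx4 for Foxo1 (r = 0.994), P2ry10b for Txnip (0.988), Kdm7a for Tsc22d3 (0.982), Jund for Btg2 (0.977), Rgs2 for Btg1 (0.962), Cass4 for Tob1 (0.969), Kdm3a for Pik3ip1 (0.975), Filip1l for Sesn3 (0.985) and Akirin2 for Foxp1 (0.947). For Klf3 they were Cyld (0.983), Ncr1 (0.970) and S1pr5 (0.970). Ncr1 is an NK cell receptor gene and a marker used here, and the NK cell sums were 5893 to 6958 and 3021 to 3564 at 0 h and 1087 to 1135 and 1151 to 1185 at 24 h. The part of NK cells in the Klf3 values was not tested. These are descriptions over 10 points.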

How the data were processed

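The deposited log2 values were made by the authors with RMA, per the submitters' processing notes, which also name Affymetrix Expression Console 1.0. The annotation build is not given in the sources used here, and the values were not scaled further. The table holds 35556 probe sets in 20 arrays, and their number limits the precision. Probe sets were kept where 2 or more arrays reached 7.45, which is the median over the whole table, and the brightest single-symbol probe set stood for a gene. All 24 contrasts came from 1 fit of 10 group means over 20 arrays in limma 3.58.1 (R 4.3.3), with eBayes and an intensity trend, 10 residual degrees of freedom, and Benjamini-Hochberg adjustment over 11968 genes within each contrast. The fit was run on simulated data for wild type 24 h against 0 h only. The simulated noise was independent between arrays, without the gap shared by replicate number. It therefore cannot check the calls under that pairing.

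All 10 members were tested in every contrast, but not every value is printed. Of each other gene list at most 4 genes are named, those called with the largest change, and likeness names the genes with the highest correlation over group means. The members and lists were chosen with earlier results of these data known. Replicate numbers, from the labels, were checked for pairing: differences between replicate 1 and 2 correlated at 0.191 to 0.769 (median 0.535) in 45 of 45 pairs of groups, so a replicate block is given beside the calls it changes. Alternatives also covered the filter, scaling, variance trend, arrays in the fit, probe set choice and each array left out.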

Additional observations from a re-analysis of the deposited data

Results flagged for a closer look

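The genotypes differed in their change from 0 to 24 h, by a test of that difference itself, for 5 members: by 0.82 on the log2 scale for Txnip, 1.45 for Tsc22d3, 0.40 for Btg1, 0.93 for Btg2 and 0.86 for Pik3ip1, each with the change in TAK1-deleted cells above that in wild type cells. The adjusted p-values from limma were 0.0143, 0.000632, 0.0345, 0.000126 and 0.00403. Within each replicate number, 9 of the 10 members had such a difference above 0 in both replicates. The share of all genes with this was not counted, so the count is a description only.

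Btg2 also differed in its change from 6 to 24 h, by 0.63 (adjusted p = 0.0039), since it rose in TAK1-deleted cells over that step. The sums of monocyte or macrophage and of neutrophil markers in the TAK1-deleted arrays went over the same hours from 2105 to 2113 to 12624 to 14206 and from 4179 to 5135 to 8023 to 8169, and their part was not tested.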

How the results depend on the processing

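No called member value turned its direction under any alternative run. Of 93 called member values, 64 kept their call with each array left out and 29 lost it with at least 1. Of all 240 member values, the replicate block added 44 calls and removed 0, quantile normalization added 27 and removed 0, centring arrays on their median removed 16, fitting only the arrays of a contrast removed 16 and added 3, no filter removed 9 and no variance trend removed 7; the stricter filter and averaging probe sets changed 0. The cause was not tested.

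Counts of members called moved as follows. With the replicate block, which uses the pairing of arrays by number, the genotype difference went from 0 to 3 at 1 h, from 1 to 2 at 3 h and from 0 to 3 at 6 h. The genotype difference in change from 0 h went from 0 to 1 at 3 h, 0 to 3 at 6 h and 5 to 8 at 24 h. The wild type steps went from 3 to 7 (3 to 6 h) and 3 to 5 (6 to 24 h), the TAK1-deleted steps from 6 to 10, 2 to 5 and 3 to 5, and the late response from 1 to 3. The block removed no member call, and the calls it added are given beside the results. Quantile normalization gave 1 at 1 h and 4 at 6 h for the genotype difference, 1 at 3 h and 1 at 6 h for the response, 5 for the wild type 3 to 6 h step, 10 for the TAK1-deleted 1 to 3 h step, 5 for its 6 to 24 h step, and 2 for the late response. It also called more of all genes. The genotype difference went from 512 to 903 genes at 1 h and from 303 to 668 at 6 h. The response went from 7 to 78 genes at 3 h and from 34 to 280 at 6 h. The wild type 3 to 6 h step went from 1042 to 1738 genes, and the late response from 463 to 752. These totals are not split by direction. For the TAK1-deleted 1 to 3 h and 6 to 24 h steps the all-gene count under quantile normalization is not given. The member counts of those steps therefore have no background. Centring gave 0 for the genotype difference at 0 h and at 3 h, and 1 for the TAK1-deleted 3 to 6 h step. Fitting only the arrays of the contrast gave 0, 0 and 0 for these, and no filter gave 0 at 0 h. Over all genes, fitting only those arrays called 150, 46 and 22 genes, where the main fit called 278, 324 and 728. Centring called 442 genes over that step.

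With each array left out, the counts for the change from 0 h ranged from 3 to 4, 6 to 7, 6 to 6 and 7 to 8 in wild type and 3 to 4, 6 to 7, 6 to 7 and 3 to 5 in TAK1-deleted cells at the 4 times. The genotype counts were 0 to 0 at 0, 1, 3 and 6 h and 4 to 6 at 24 h, and the response counts 0 to 0 at 1, 3 and 6 h and 3 to 6 at 24 h. The steps ranged from 6 to 8, 2 to 3 and 2 to 3 in wild type and 6 to 7, 1 to 2 and 2 to 3 in TAK1-deleted cells, and the late response from 1 to 2. A lone array was assumed to vary like the other groups, and the shares over all genes in these runs are not given. Over all genes the block gave 3442 calls between genotypes at 24 h and 2633 for the response at 24 h, and at 0, 1, 3 and 6 h 837, 1544, 995 and 1458 between genotypes.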

Other observations

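Partners and relatives of the metabolic members were also measured. Of 11 alpha-arrestins and thioredoxin partners tested, 6 were lower and 2 higher at 24 h in wild type cells, beside 20.2% and 23.6% of all genes. Txnrd1, thioredoxin reductase, rose by 1.36 ± 0.14 (limma, adjusted p = 1.03e-06), while Arrdc4 (-1.16 ± 0.14), the glucose transporter gene Slc2a3 (-1.06 ± 0.18) and Arrdc3 (-0.96 ± 0.18) fell. Arrdc3 had risen by 1.74 ± 0.18 at 1 h (3.56e-06) and was the single gene of this list called between genotypes at 24 h, higher in TAK1-deleted cells (0.76 ± 0.18, 0.0127). Of 12 sestrin and GATOR genes, Sesn1 fell most at 24 h in wild type cells (-1.38 ± 0.15, 1.52e-06), and 3 were higher in TAK1-deleted cells at 24 h, beside 7.04% of all genes: Castor2 (0.88 ± 0.14), Sesn2 (0.59 ± 0.16) and Sesn1 (0.55 ± 0.15). Of 15 deadenylation genes and BTG/TOB relatives, 1 was higher and 2 lower at 24 h in wild type cells: Cnot9 rose by 1.16 ± 0.15, and Pan2 (-0.74 ± 0.17) and Pan3 (-0.52 ± 0.17) fell, counts below the all-gene shares.

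Foxo1, Foxp1, Tob1 and Klf3 read higher in replicate 1 than in replicate 2 in all 10 groups, as did 22.8% of all genes tested. Their mean gaps were 0.24, 0.17, 0.40 and 0.42 on the log2 scale, and the largest single gap was 0.80, in Klf3.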
